A study of Mus musculus with 12 samples.

Results

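The calcium/calmodulin kinase genes Camk2a, Camk2b, Camk2d, Camk2g and Camk4 and the neurogranin gene Nrgn were followed in mouse cortex for mCH, methylation at cytosines that no guanine follows. The 6 genes were listed by name and not by any measured value, although earlier results of these data were known when they were chosen. They were taken from 23882 genes in the tables. All 6 were among the 19826 genes with at least 500 non-CG calls in every library. Whole-genome bisulfite sequencing, in which an unmethylated cytosine is read as thymine, gave 12 libraries of cortical DNA from C57BL/6 mice. At postnatal day 40 (P40) 4 libraries were labelled miR29 KO and 4 WT. At 4 months 2 libraries carried the genotype label Dnmt3a mi5, with sample titles that read DNMT3AmiR29MUT, and 2 were labelled WT. miR-29 is a microRNA family known to repress Dnmt3a, which encodes the DNA methyltransferase that places mCH in neurons. From the labels it is not known which members of the miR-29 family are deleted, in what cells, what the mi5 allele changes, or whether animals were pooled. The tables hold DNA methylation and no RNA, so the tissue label could not be set against marker expression.

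Calcium entering an active synapse binds calmodulin, and calmodulin switches on this kinase family. CaMKII is a large assembly of subunits made from the 4 Camk2 genes, and it is known for its part in strengthening synapses between excitatory forebrain neurons. CaMKIV, the product of Camk4, acts in the nucleus on the transcription factor CREB, and neurogranin holds calmodulin near the postsynaptic membrane while calcium is low. mCH builds up in neurons after birth and is known to lie lower over genes that a neuron uses strongly than over genes it uses little.

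What the measure counts can be seen in the sequence at the gene starts, shown for Nrgn, the gene with the fewest calls, and Camk2d, the gene with the highest level. Each window of 300 bases runs from 250 bases before the start to 50 after it, 5′ to 3′ on the gene's strand, from RefSeq on GRCm38.p6. Capitals mark cytosines not followed by guanine, the only ones that can carry mCH on this strand. The tables were made on another build, mm9, and give no level for the window itself.
Nrgn, chr9:37552696-37552995, minus strand: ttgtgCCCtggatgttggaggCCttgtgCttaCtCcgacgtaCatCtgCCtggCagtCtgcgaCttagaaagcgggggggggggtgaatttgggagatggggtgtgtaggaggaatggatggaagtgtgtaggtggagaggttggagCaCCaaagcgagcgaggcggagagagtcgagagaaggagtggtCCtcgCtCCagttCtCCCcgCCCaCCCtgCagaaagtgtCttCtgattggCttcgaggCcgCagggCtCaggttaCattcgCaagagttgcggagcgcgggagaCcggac
Camk2d, chr3:126596701-126597000, plus strand: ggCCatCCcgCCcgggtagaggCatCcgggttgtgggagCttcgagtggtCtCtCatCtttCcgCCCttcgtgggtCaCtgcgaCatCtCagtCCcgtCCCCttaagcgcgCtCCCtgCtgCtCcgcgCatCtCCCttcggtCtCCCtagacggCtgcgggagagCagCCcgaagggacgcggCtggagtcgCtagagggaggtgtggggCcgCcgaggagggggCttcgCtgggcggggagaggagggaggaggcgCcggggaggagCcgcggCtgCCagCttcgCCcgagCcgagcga
The Nrgn window holds 44 such cytosines, of which 11 are followed by A, and 17 CG pairs. The Camk2d window holds 63, of which 9 are followed by A, and 31 CG pairs on the strand shown. Of 32851 windows of this kind, 31.4% hold at least 17 CG pairs and 10.6% hold at least 31. RefSeq entries were matched for 3 of the 6 genes, the third being Camk2b.

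Calls set how closely each gene could be measured. Camk2d had 116408 to 175604 calls per library, Camk4 101176 to 168597, Camk2b 29921 to 72739, Camk2g 18129 to 47297, Camk2a 15926 to 48350 and Nrgn 2549 to 6368. In the fourth miR29 KO library 30 of 4988 Nrgn calls were methylated, a level of 0.601% with a 95% Wilson interval of 0.422 to 0.857, while Camk2d stood at 3.13% with an interval of 3.04 to 3.22. These intervals cover counting error only, and libraries of a group differed by more than that. All genes together had 399563315 to 732985403 calls per library. As a check of the labels, the 4 miR-29 genes together had 26, 69, 54 and 6 calls in the miR29 KO libraries and 224, 137, 121 and 244 in WT at P40. The median gene stood at 1.63% to 2.39% in the miR29 KO, against 1.21% to 1.44% in WT at P40, and at 2.20% to 2.22% in the Dnmt3a mi5 libraries, against 1.21% to 1.23% in WT at 4 months. The fourth miR29 KO library had the lowest median gene of its group, 1.63%. In 4 libraries, 1 per group, coverage of 3 Y-linked genes was low, and none of the 6 genes lost or gained a call in either mutant when this was added to the model as a term.

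The levels of the 6 genes fell into a wide range with a stable top. Camk2d, the broadly expressed delta subunit of CaMKII that is also the main form in heart, was the highest of the 6 in all 12 libraries. Its level was above that of 94.1% to 95.3% of all genes in the WT libraries of P40. Camk4 was second in all 12, near the median gene, and above 48.9% to 53.0% of all genes in the same WT libraries. Camk2b, the neuronal beta subunit known to bind actin, was lowest in the mean of every group. In WT at P40 the means were 2.66% for Camk2d, 1.33% for Camk4, 0.868% for Camk2g, 0.838% for Camk2a, 0.703% for Nrgn and 0.562% for Camk2b. Camk2d and Camk4 stood apart from each other and from the rest, while the neighbours Camk2g and Camk2a, Camk2a and Nrgn, and Nrgn and Camk2b overlapped in their WT libraries at P40. At 4 months the 2 WT libraries kept the same order, with overlap only between Nrgn and Camk2b.

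The question at P40 was whether loss of miR-29 goes with a change of mCH over these genes. Camk4, Camk2d, Camk2b and Camk2g rose in the miR29 KO, while Camk2a and Nrgn were higher in the mean but did not pass the test. The 4 of 6 genes that rose are to be read against the 76.5% of all genes that rose and the 0.0454% that fell, so most of the genome moved the same way. The test fitted the calls by quasi-binomial regression, with the dispersion moderated by limma. P-values were adjusted by the Benjamini-Hochberg method over all 19826 genes and called under 0.05, and each effect is given as a log2 odds ratio. In bulk cortex a change in the mix of cells and a change of methylation within cells cannot be told apart. No conversion rate was used, so each level includes any unmethylated cytosine that bisulfite left unconverted.

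Camk4 had levels of 2.33%, 2.21%, 2.09% and 1.59% in the miR29 KO libraries, against 1.19%, 1.47%, 1.44% and 1.23% in WT. Every KO library lay above every WT library. The means were 2.05% ± 0.324 in the miR29 KO and 1.33% ± 0.142 in WT (SD, n = 4 each), and Camk4 had the largest log2 odds ratio of the 6 genes, 0.65 with an SE of 0.14 (limma-moderated adjusted p = 3.4e-04).

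Camk2d had 4.06%, 3.83%, 3.77% and 3.13% in the miR29 KO libraries, against 2.45%, 2.98%, 2.77% and 2.43% in WT. The groups did not overlap, although the lowest KO library was close to the highest WT library. The log2 odds ratio was 0.50 with an SE of 0.10 (limma-moderated adjusted p = 2.3e-04), and in points of methylation its difference of 1.04 was the largest of the 6 genes. Camk2b had 0.939%, 0.821%, 0.828% and 0.656% in the miR29 KO libraries, against 0.576%, 0.584%, 0.622% and 0.465% in WT. Again no KO library reached down into the WT range, and the log2 odds ratio was 0.54 with an SE of 0.18 (limma-moderated adjusted p = 0.0115). Of all genes, 57.1% had every KO library above every WT library, which is the background for the 3 of 6 genes that did.

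Camk2g, the gamma subunit known to carry calmodulin to the nucleus in neurons, had 1.34%, 1.24%, 1.19% and 0.957% in the miR29 KO libraries, against 0.840%, 1.02%, 0.854% and 0.757% in WT. Its groups overlapped, because the fourth KO library lay below the second WT library, and the gene still rose with a log2 odds ratio of 0.46 (SE 0.16, limma-moderated adjusted p = 0.0143). The Camk2g call held in all 12 fits that left out a library, with a limma-moderated adjusted p of up to 0.0499. An exact permutation test of its levels gave p = 0.0571, against 0.0286 for Camk4, Camk2d and Camk2b. Camk2a, the alpha subunit that is abundant in excitatory neurons of the forebrain, had 1.11%, 1.09%, 1.22% and 0.753% in the miR29 KO libraries, against 0.749%, 0.868%, 0.840% and 0.894% in WT. Here 3 KO libraries lay above all WT libraries and the fourth lay among them. Its log2 odds ratio of 0.33 (SE 0.17) was the smallest of the 6 genes and was above that of 13.2% of all genes (limma-moderated adjusted p = 0.0736). Nrgn had 1.10%, 1.22%, 0.972% and 0.601% in the miR29 KO libraries, against 0.769%, 0.831%, 0.665% and 0.546% in WT. The pattern was the same, with the fourth KO library inside the WT range, and the log2 odds ratio was 0.48 (SE 0.25, limma-moderated adjusted p = 0.0855).

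Camk2a and Nrgn, the 2 genes that missed the threshold at P40, each passed in 1 of the 12 fits that left out a single library. Over these fits their limma-moderated adjusted p reached 0.242 and 0.257, and the fit that passed was the one without the fourth KO library. Without it Camk2a had a log2 odds ratio of 0.46 (limma-moderated adjusted p = 0.0014) and Nrgn one of 0.65 (limma-moderated adjusted p = 0.0110), so that all 6 genes rose, against 80.7% of all genes. That library was low over the whole genome, not over these genes alone. Camk2a also depends on which of its rows is used. A second row with fewer calls, 6027 to 20063 per library, gave 1.11%, 1.11%, 1.12% and 0.656% in the miR29 KO libraries, against 0.578%, 0.773%, 0.768% and 0.852% in WT, and passed with a log2 odds ratio of 0.46 (limma-moderated adjusted p = 0.0376). Camk2a passed as well when the dispersion was moderated without a trend (adjusted p = 0.0446).

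**Figure D1:**
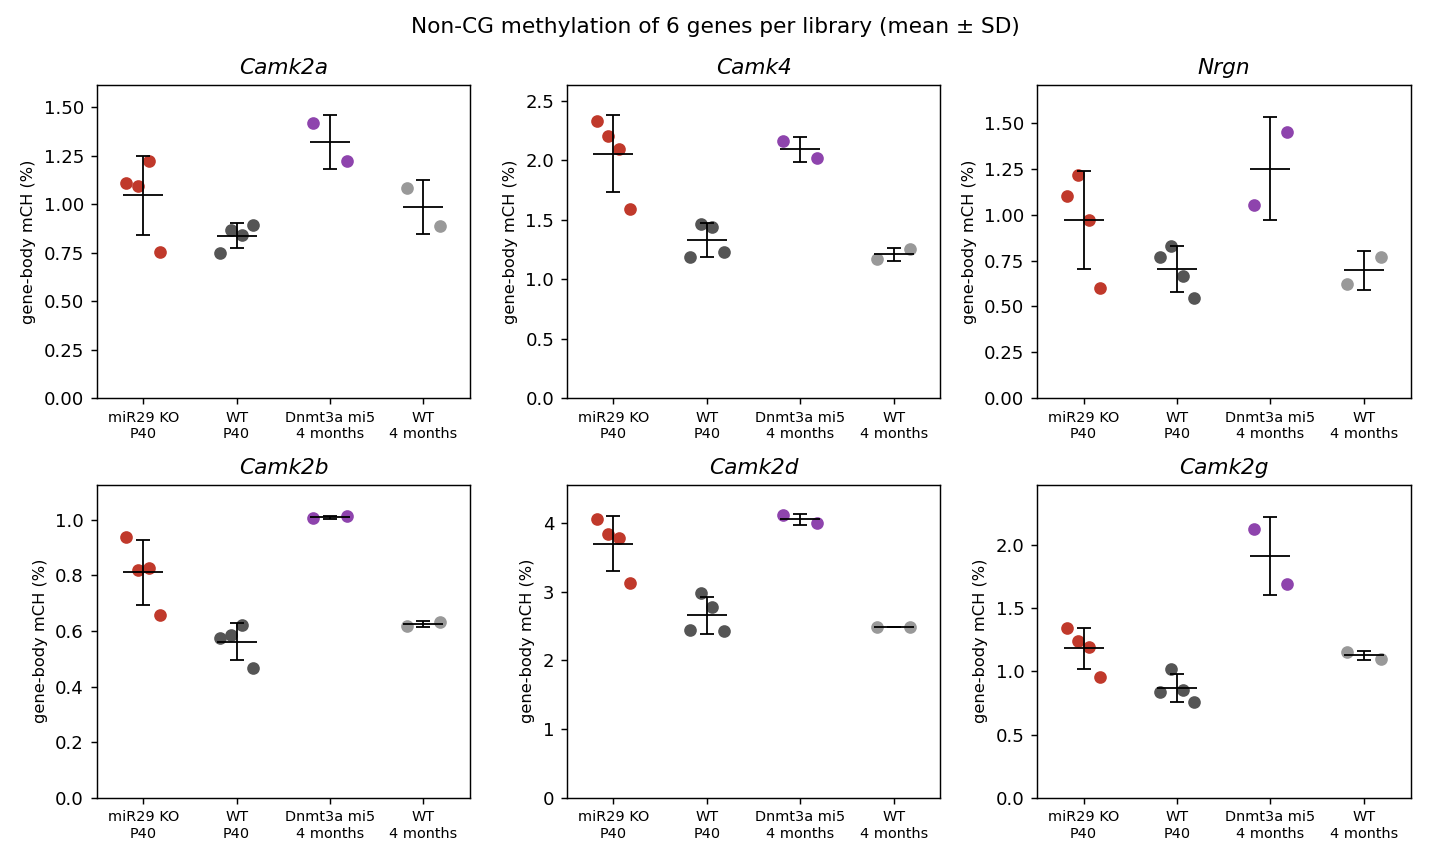
Gene-body mCH in percent of non-CG calls for each gene, with a point per library, a bar at the mean and whiskers of 1 SD. The fourth miR29 KO library is the lowest of its group in every panel, and both Dnmt3a mi5 libraries lie above both WT libraries of 4 months for each gene.

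At 4 months the same question was put to the Dnmt3a mi5 allele. Camk2d, Camk4 and Camk2g rose, 3 of the 6 genes, against 58.8% of all genes that rose and 0% that fell. Both mi5 libraries lay above both WT libraries in all 6 genes, which was also so for 86.2% of all genes. With 2 libraries a group an exact permutation test cannot go below p = 0.333, so the calls rest on the spread shared over all 12 libraries.

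Camk2d had 4.11% and 3.99% in the mi5 libraries, against 2.49% and 2.49% in WT, a log2 odds ratio of 0.73 with an SE of 0.16 (limma-moderated adjusted p = 0.0030). Camk4 had 2.16% and 2.02% in mi5, against 1.17% and 1.25% in WT, a log2 odds ratio of 0.80 (SE 0.24, limma-moderated adjusted p = 0.00863). Camk2g had 2.13% and 1.69% in mi5, against 1.15% and 1.10% in WT, a log2 odds ratio of 0.75 (SE 0.25, limma-moderated adjusted p = 0.0170). In these 3 genes the gap between the groups was wider than the spread within either. Leaving out Dnmt3a_mi5_4mo replicate 1 took Camk4 to an adjusted p of 0.0533 and Camk2g to 0.127. Leaving out WT_4mo replicate 1 took them to 0.0793 and 0.0845, and leaving out WT_4mo replicate 2 took Camk2g to 0.0913, so these calls each rest on single libraries. The limma-moderated Camk2d call held whichever single library was left out, with an adjusted p of at most 0.0450.

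The other 3 genes were higher in mi5 without passing. Camk2b had 1.01% and 1.01% in mi5, against 0.617% and 0.632% in WT, with almost no spread in either group (log2 odds ratio 0.70, SE 0.32, limma-moderated adjusted p = 0.0622). Nrgn had 1.05% and 1.45% in mi5, against 0.622% and 0.772% in WT (log2 odds ratio 0.86, SE 0.44, limma-moderated adjusted p = 0.0974). That was the largest log2 odds ratio of the 6 genes at 4 months, on the fewest calls. Camk2a had 1.42% and 1.22% in mi5, against 1.09% and 0.885% in WT (log2 odds ratio 0.42, SE 0.31, limma-moderated adjusted p = 0.237), again the smallest of the 6. Camk2b also passed without miR29KO_P40 replicate 1 (adjusted p = 0.0454) or replicate 4 (adjusted p = 0.00997), and Nrgn without miR29KO_P40 replicate 4 (adjusted p = 0.0490), since those libraries enter through the shared spread. With limma on log2(percent + 0.1) Camk2b and Nrgn passed as well (limma adjusted p = 0.0177 and 0.0232), against 73.5% of all genes that rose. With the spread taken from the 4-month libraries alone all 6 passed (limma-moderated adjusted p = 0.0139 for Camk2a), against 73.4% of all genes.

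Since most genes moved together, each gene was also set against the shift common to its library. For this the log odds of each library's median gene entered the model as an offset, after which the median log2 odds ratio of all genes was -0.03 at P40 and -0.05 at 4 months. At P40 all 6 genes had negative values, where only 42.1% of all genes had positive ones. Camk2d and Camk2a lay below the common shift past the threshold, against 3.59% of all genes below it and 1% above it. Camk2d had a level of 1.70 to 1.92 times the median gene in the miR29 KO libraries, against 1.99 to 2.07 times in WT, and a centred log2 odds ratio of -0.19 with an SE of 0.03 (limma-moderated adjusted p = 0.00383). Its place among all genes was lower too, above 85.1% to 91.6% of them in the miR29 KO libraries and 94.1% to 95.3% in WT. The Camk2d call held whichever library was left out, with an adjusted p of at most 0.0251. The direction depends on the scale, however. In percentage points, by limma, Camk2d moved 0.28 points more than the median gene and did not pass (adjusted p = 0.0744), and on the log2(percent + 0.1) scale it lay below it, by 0.16, without passing (adjusted p = 0.130).

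Camk2a stood at 0.462 to 0.593 times the median gene in the miR29 KO libraries, against 0.603 to 0.736 times in WT, so the groups did not overlap on this relative scale although they did in absolute level. Its centred log2 odds ratio was -0.35 with an SE of 0.09 (limma-moderated adjusted p = 0.0359). The call was lost without miR29KO_P40 replicates 1, 2 or 4 or WT_P40 replicates 1 or 4, with adjusted p from 0.0546 to 0.130, and with the second row (-0.22, adjusted p = 0.340). It was also lost by limma on log2(percent + 0.1) (adjusted p = 0.147) or log2(percent + 0.5) (adjusted p = 0.05005), with the 1st percentile of levels subtracted (adjusted p = 0.0984), with only the P40 libraries in the fit (adjusted p = 0.0577) and without a trend in the moderation (adjusted p = 0.0559). Camk4 followed the common shift closely, with 0.974 to 1.01 times the median gene in the miR29 KO libraries, against 0.980 to 1.06 times in WT, and a centred value of -0.04 (SE 0.04, adjusted p = 0.656). Camk2g stood at 0.559 to 0.587 times the median gene in the miR29 KO libraries, against 0.623 to 0.709 times in WT, with no overlap. How many of all genes separate on this relative scale was not counted, so the separation of Camk2a and Camk2g has no background. Camk2g, Nrgn and Camk2b had centred values of -0.23, -0.21 and -0.15 that did not pass (limma-moderated adjusted p = 0.0922, 0.600 and 0.291).

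At 4 months none of the 6 genes departed from the common shift past the threshold in the limma-moderated model, where 0.0353% of all genes lay below it and 0% above it. In that model Camk2a and Camk2d had unadjusted p-values of 0.0158 and 0.0159, and 1803 of the 19826 genes had one under 0.05. The centred values were negative for all 6, where only 42.1% of all genes had positive ones. They ran from -0.01 for Nrgn to -0.45 for Camk2a (SE 0.17, adjusted p = 0.406). By limma on percent levels 4 of the 6 passed, with Camk2a, Camk2b and Nrgn below the common shift and Camk2d above it. That fit also placed 27.7% of all genes below the shift and 21% above it. Camk2a stood at 0.641 and 0.555 times the median gene in mi5, against 0.882 and 0.732 times in WT. Camk4 stood at 0.977 and 0.915 times in mi5, against 0.953 and 1.03 times in WT, and so again lay near the median gene.

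**Figure D2:**
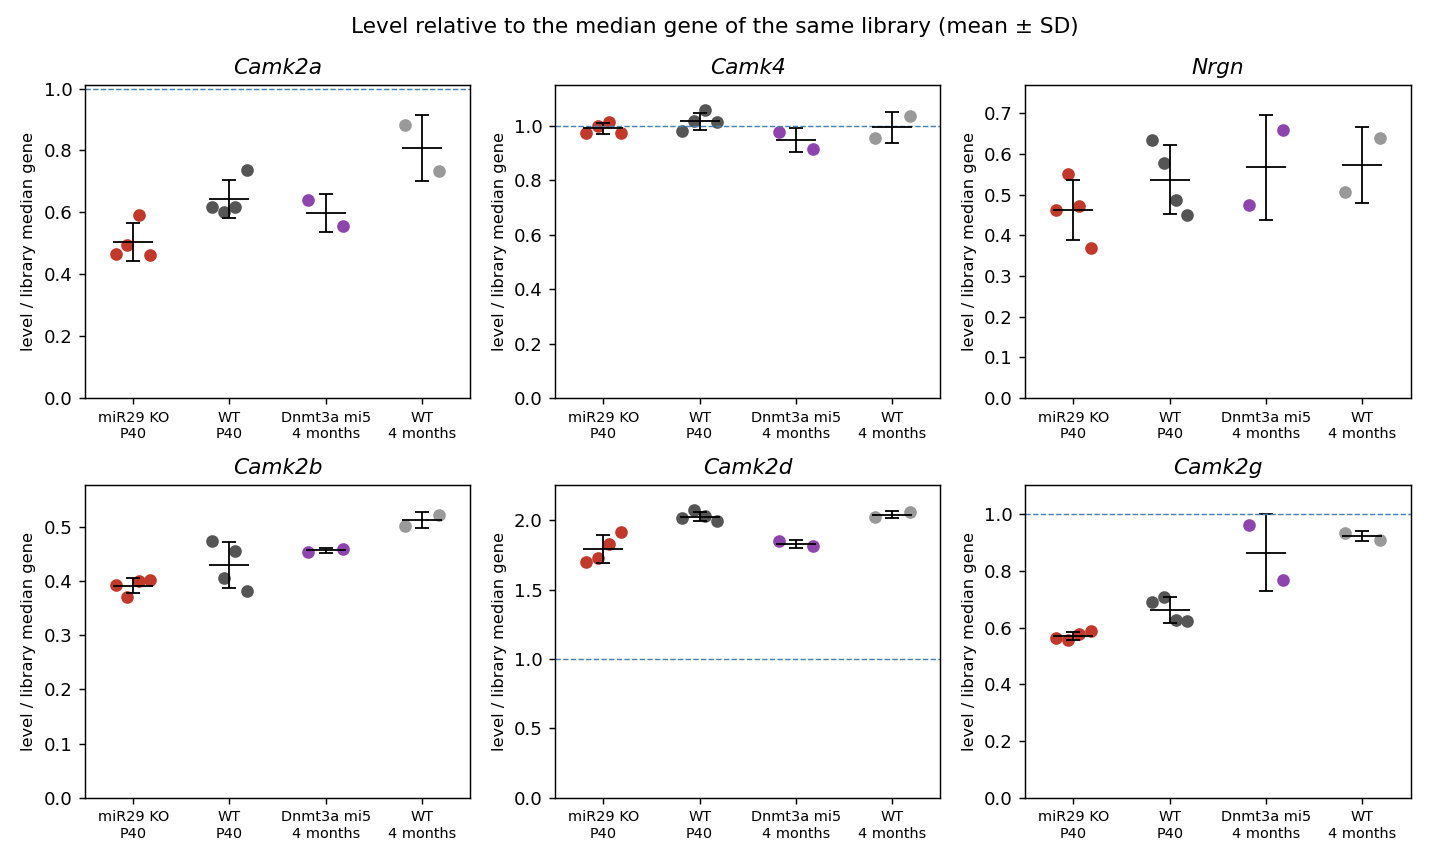
Level of each gene divided by the level of the median gene of the same library (dashed line at 1, where in range), with a point per library, a bar at the mean and whiskers of 1 SD. Camk2a and Camk2d sit lower in the miR29 KO than in WT at P40, Camk4 lies near 1 in all groups, and Camk2g lies higher at 4 months than at P40.

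**Figure D3:**
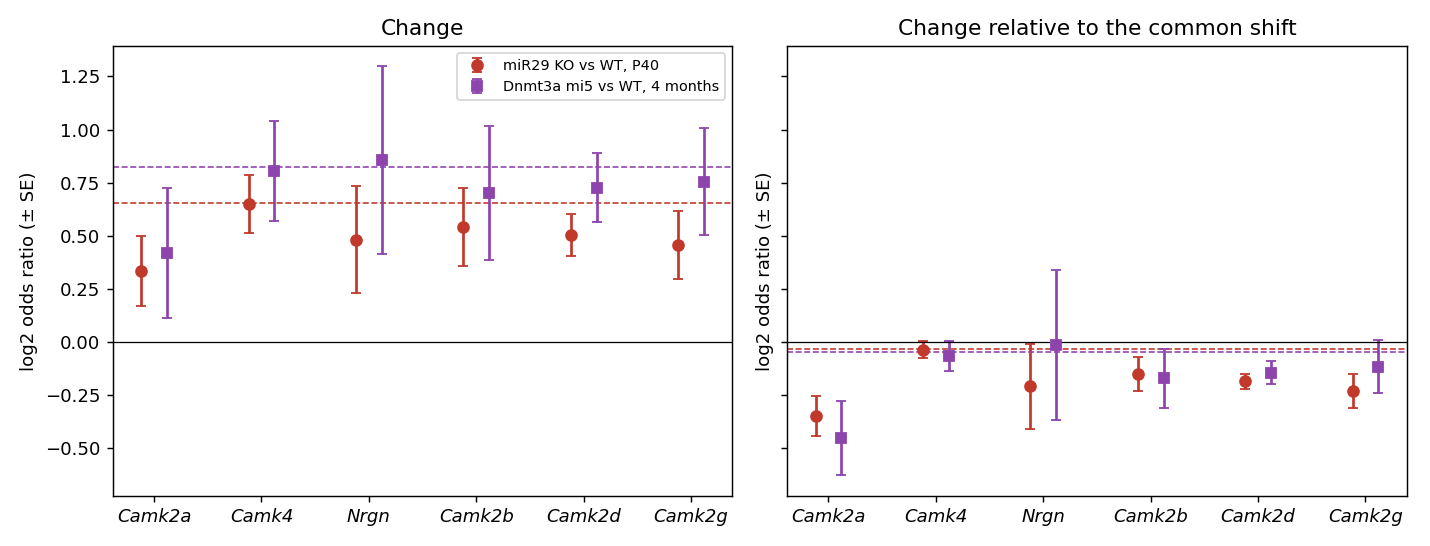
Log2 odds ratios with SE of the 6 genes in both mutants, as measured (left) and relative to the shift common to all genes (right); dashed lines give the median of all genes. Camk2a has the smallest value in both mutants, 0.33 and 0.42 on the left, and Camk4 lies on or near the median of all genes.

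The size of a change also goes with a gene's WT level across the genome. Genes were put into deciles of WT level measured at the other age, so that the level did not share libraries with the change. At P40 the log2 odds ratio of Camk2a, 0.33, was below the median of its decile, 0.64, as were those of Camk2g (0.46 against 0.68), Camk2d (0.50 against 0.67) and, by less, Nrgn (0.48 against 0.56) and Camk4 (0.65 against 0.68). Camk2b, in the second decile, lay above its median (0.54 against 0.44). At 4 months Camk2a again lay below its decile (0.42 against 0.74), as did Camk2d (0.73 against 0.88), Camk4 (0.80 against 0.89) and Camk2g (0.75 against 0.80), and Nrgn and Camk2b lay above theirs (0.86 against 0.74, and 0.70 against 0.60).

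The changes of both mutants did not differ past the threshold in any of the 6 genes, nor in any of the 19826 (0% higher and 0% lower, with or without centring), by the limma-moderated model, where 289 genes and none of the 6 had an unadjusted p under 0.05. The differences in log2 odds ratio, Dnmt3a mi5 minus miR29 KO, ran from 0.08 for Camk2a (95% interval -0.60 to 0.77) to 0.37 for Nrgn (95% interval -0.62 to 1.37). The narrowest interval was that of Camk2d, -0.15 to 0.60 around 0.22. These intervals still allow sizeable differences in either direction. Across all genes the difference was positive in 77.7%, with a median of 0.18, and after centring in 49.2%, with a median of -0.004. In this contrast the mutant cannot be told apart from age or from the set of libraries.

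WT cortex of 4 months was compared with WT cortex of P40, where age and the set of libraries cannot be told apart. By the limma-moderated model 0.131% of all genes were higher at 4 months and 0% lower, with 462 at an unadjusted p under 0.05, and none of the 6 genes passed, with or without adjustment. Camk2g had the largest difference, 1.15% and 1.10% at 4 months, against 0.840%, 1.02%, 0.854% and 0.757% at P40. Its groups did not overlap, which held for 6.03% of all genes in this direction. Relative to the common shift Camk2g was higher at 4 months, with 0.936 and 0.911 times the median gene, against 0.692, 0.709, 0.626 and 0.623 times at P40. The centred log2 odds ratio was 0.48 with an SE of 0.11 (limma-moderated adjusted p = 0.0274), with 1.44% of all genes past the threshold above the shift and 0.101% past it below. It did not pass with WT_4mo replicate 1, WT_4mo replicate 2 or WT_P40 replicate 3 left out (adjusted p = 0.314, 0.267 and 0.0766), nor by limma on log2(percent + 0.1) (adjusted p = 0.0548) or on percent levels (adjusted p = 0.803), nor with the replicate number as a block (adjusted p = 0.0840). Camk2g had 26590 and 24711 calls in the 4-month WT libraries, against 36784 to 44050 in those of P40. The part of depth in this difference was not tested. Camk2d and Camk4, at 4 months and P40, had 2.49% and 2.66%, and 1.21% and 1.33%, in the mean.

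The members were also split by where they are expressed. Camk2a, Camk4 and Nrgn are enriched in forebrain neurons, though Camk4 is also found in cerebellum, thymus and testis. Camk2d and Camk2g are made in most tissues, and Camk2b, made across the brain and in muscle, was kept out of both sets. The forebrain-enriched set had the lower mean level in all 12 libraries. In the miR29 KO it averaged 1.36%, with the broadly expressed set at 2.44%, and in WT of P40 it averaged 0.957%, with the broadly expressed set at 1.76%. In Dnmt3a mi5 the 2 sets averaged 1.55% and 2.98%, and in WT of 4 months 0.964% and 1.81%. The gap of forebrain-enriched minus broadly expressed genes was -1.08 points ± 0.0717 in the miR29 KO and -0.804 points ± 0.109 in WT (SD, n = 4 each), and -1.43 points ± 0.206 in Dnmt3a mi5 and -0.843 points ± 0.0233 in WT (SD, n = 2 each).

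In points the gap was thus wider in both mutants, with no overlap between libraries, but as a ratio it was not. The forebrain-enriched mean was 0.480 to 0.595 of the broadly expressed mean in the miR29 KO libraries, against 0.527 to 0.560 in WT of P40, and 0.496 and 0.550 of it in mi5, against 0.528 and 0.540 in WT of 4 months. The forebrain-enriched mean of the miR29 KO was 1.42 times that of WT and the broadly expressed mean 1.38 times, and in mi5 they were 1.61 and 1.65 times those of WT. Camk2d held the higher place of the broadly expressed set. Camk2g, the other broadly expressed gene, had a mean difference from Camk2d of -2.52 points in the miR29 KO, against -1.79 points in WT of P40, and -2.14 points in Dnmt3a mi5, against -1.36 points in WT of 4 months. At P40 Camk2g, with means of 1.18% in the miR29 KO and 0.868% in WT, lay below the forebrain-enriched mean. At 4 months, with 1.91% in mi5 and 1.13% in WT, it lay above it. Within the forebrain-enriched set Camk4 lay above Camk2a and Nrgn in all 12 libraries.

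**Figure D4:**
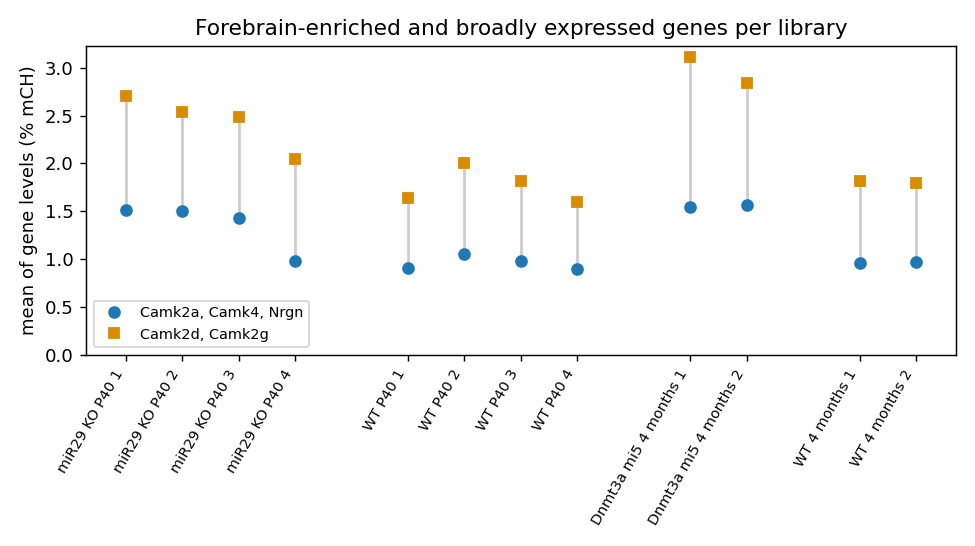
Mean mCH level in each library of the forebrain-enriched genes (circles) and of the broadly expressed genes (squares). The squares lie above the circles in all 12 libraries, and the gap in points is wider in the mutants, -1.08 in the miR29 KO and -1.43 in Dnmt3a mi5, against -0.804 and -0.843 in WT.

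Other genes of calcium/calmodulin signalling gave a wider view of the pathway. Of 31 listed genes 29 were tested; Pnck, a brain kinase gene of the CaMKI family, and Camk2n2, which encodes a CaMKII inhibitor, had too few calls. In the miR29 KO 20 of the 29 rose and none fell past the threshold, where 76.5% of all genes rose, with a median log2 odds ratio of 0.53 against 0.65 for all genes. In Dnmt3a mi5 19 of the 29 rose and none fell, where 58.8% of all genes rose, with a median of 0.80 against 0.83. Relative to the common shift 2 of the 29 lay above it and 3 below it at P40, where 1% of all genes lay above and 3.59% below. At 4 months none of the 29 did, where 0% of all genes lay above and 0.0353% below.

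Gap43, whose product binds calmodulin in growing axons, had 2.68% ± 0.471 in the miR29 KO and 1.39% ± 0.168 in WT (SD, n = 4 each), with a log2 odds ratio of 0.98 (limma-moderated adjusted p = 5.7e-05). It also lay above the common shift at P40 (centred 0.29, limma-moderated adjusted p = 0.00518) but not at 4 months (-0.16, limma-moderated adjusted p = 0.617). Adcy1, a calmodulin-stimulated adenylyl cyclase, averaged 1.57% in the miR29 KO and 0.828% in WT, a log2 odds ratio of 0.94, and it averaged 1.91% in mi5 and 0.941% in WT, a log2 odds ratio of 1.03. Camk1g, a CaMKI kinase, averaged 2.99% in the miR29 KO and 1.54% in WT. Among the clearest rises at 4 months, Ppp3cc, a catalytic subunit of the calmodulin-dependent phosphatase calcineurin, averaged 3.58% in mi5 and 2.08% in WT, and Creb1, the transcription factor on which CaMKIV acts, 2.02% and 1.02%.

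Of the genes of calmodulin itself, Calm3 was at the other end in both mutants and Calm2 at 4 months. Calm3 averaged 0.460% in the miR29 KO and 0.480% in WT, with a log2 odds ratio of -0.09 (limma-moderated adjusted p = 0.813). Calm2 was higher in the miR29 KO, 0.479% against 0.402% in WT of P40 (log2 odds ratio 0.29, limma-moderated adjusted p = 0.359). At 4 months Calm3 averaged 0.337% in mi5 and 0.468% in WT, and Calm2 0.596% and 0.638% (limma-moderated adjusted p = 0.572 and 0.845). None of these passed, and Calm3 had as few as 1632 calls. The calmodulin genes and their processed copies are much alike in sequence, which makes these values uncertain. Camk2n1, which encodes a CaMKII inhibitor and is named here after its values were seen, averaged 0.804% in the miR29 KO and 0.772% in WT (limma-moderated adjusted p = 0.882), and 1.71% in mi5 and 0.519% in WT of 4 months (log2 odds ratio 1.75, SE 0.65, limma-moderated adjusted p = 0.0283). Camk2n1 had as few as 1238 calls, and its WT libraries of 4 months stood at 0.302% and 0.737%. Relative to the common shift it did not pass at 4 months (centred 0.88, SE 0.61, limma-moderated adjusted p = 0.703).

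**Figure D5:**
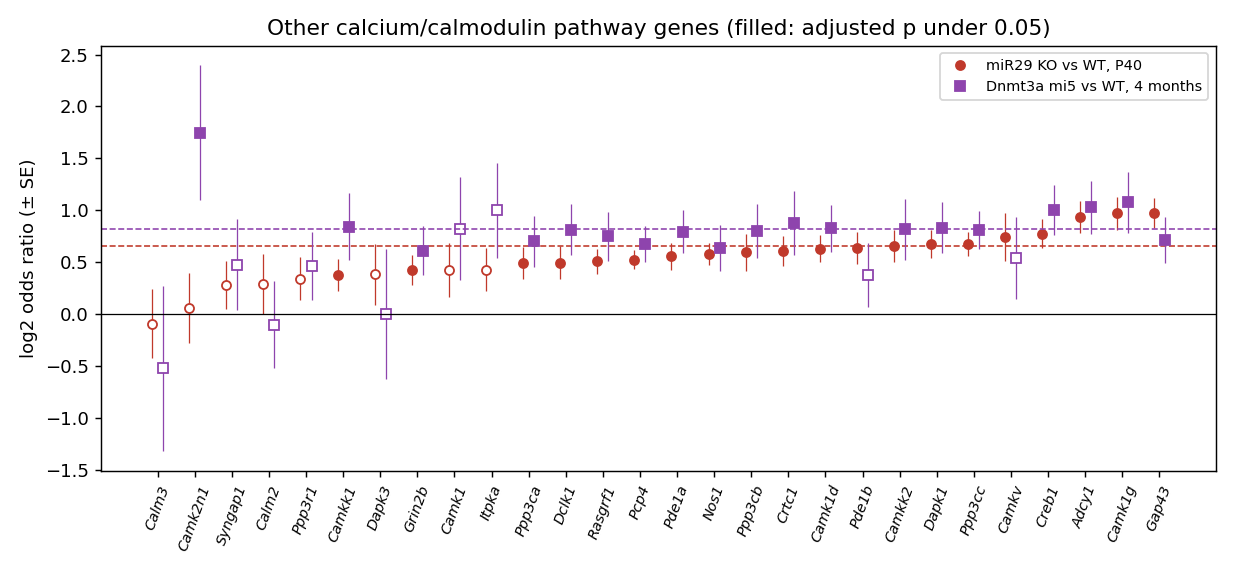
Log2 odds ratios with SE of 28 of the 29 other calcium/calmodulin pathway genes tested (1 is not reported here) in the miR29 KO (circles) and Dnmt3a mi5 (squares), ordered by the value at P40. Filled symbols passed the threshold, dashed lines give the medians of all genes, 0.65 and 0.83, and Calm3 has the lowest value in both mutants.

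Genes with the most similar pattern were looked for among 9746 genes with a mean of at least 10000 calls. Genes with only a placeholder symbol (Gm, LOC, Rik or clone names) were left out. Likeness was the Pearson r over 12 libraries of log2(percent + 0.1) after each library's median was removed. The libraries form 4 groups and share depth and group, so r is a description. Camk2d was most like Klf12 (r = 0.957) and Tnks (r = 0.953), Camk2g most like Kcnma1 (r = 0.972) and Pdzrn3 (r = 0.971), Camk2a most like Sptbn1 (r = 0.947) and Klhdc10 (r = 0.938), and Camk2b most like Pcdhgc5 (r = 0.945). Camk4 was most like Psma8 (r = 0.897) and Uhrf1bp1 (r = 0.882), and Nrgn most like Crk (r = 0.862) and Txndc12 (r = 0.857). Among the members themselves Camk2b and Camk2g were most alike (r = 0.799), and Camk4 and Camk2g least (r = -0.22).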

How the data were processed

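Cortical DNA was sonicated with unmethylated lambda DNA added and sequenced after bisulfite conversion, per the labels' protocols. BSMAP and the mm9 build are named, without versions, per the submitters' processing notes. The authors deposited, for each library, 36672 RefSeq rows that hold a count of methylated non-CG calls, in whole numbers, and a total that is an expected count (whole in 35.7% to 62.2% of rows) and was rounded; how totals were made is not stated in the notes used here.

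Identifiers were matched to symbols through the RefSeq table of GRCm38.p6, used for names and, apart from the levels, for the windows at gene starts; 300 rows had none. Rows with repeated identifiers (1395) were left out, and the row with most calls stood for its gene. Rows of Camk2a and Camk2d differed between transcripts; those of the other members did not. Overlapping RefSeq genes were noncoding.

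Levels are methylated over total calls. For each gene, calls of all 12 libraries were fitted with 1 mean for each group by quasi-binomial logistic regression, and the dispersion was moderated with limma 3.58.1 (squeezeVar, trend and robust) in R 4.3.3. A gene with no methylated call in a group got 0.5 methylated calls per library. P-values were adjusted over 19826 genes with at least 500 calls in every library. The model was run on simulated calls in which a small set of genes changed in the miR29 KO group, with the median dispersion for every gene and no common shift. The simulation does not show how the test behaves when most genes move together, as they did here. Tables, exact tests and plots were made with scipy 1.17.1, pandas 2.3.3, matplotlib 3.10.9, numpy 2.4.6 and Python 3.11.15. Members, lists and tests were chosen with earlier results of these data known. All 6 members are named, and of the pathway list, in each mutant, the 3 smallest adjusted p past the threshold and the 2 lowest log2 odds ratios; some genes these rules name are not reported here. Nothing says that replicates are separate animals, so the spread behind each p-value is that between libraries and may be technical; libraries of a group differed beyond sampling noise (mean chi-square per gene of 2.73 or more). Alternatives covered scale, pseudocount, filters, centring, background, replicate block, moderation, transcript, Y-gene coverage, rounding and each library left out.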

Additional observations from a re-analysis of the deposited data

How the results depend on the processing

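Members past the threshold numbered 4 of 6 at P40 and 3 of 6 at 4 months. At P40 the count ran from 4 to 6 over fits that left out 1 library, and was 2 after centring, where all 6 directions turned: -0.35 for Camk2a, -0.037 for Camk4, -0.21 for Nrgn, -0.15 for Camk2b, -0.19 for Camk2d and -0.23 for Camk2g. Centring left 910 of all genes called at P40, against 15176; without a library they numbered 13868 to 16013. At 4 months the count of members was 5 by limma on percent, log2(percent + 0.1) or log2(percent + 0.5), 6 with only the groups compared, 0 after centring and from 1 to 5 without a single library. All genes called then numbered 7 after centring and from 4673 to 13329 without a library, against 11649. The centred values at 4 months were -0.45 for Camk2a, -0.067 for Camk4, -0.015 for Nrgn, -0.17 for Camk2b, -0.15 for Camk2d and -0.12 for Camk2g. Centring removes the shift common to all genes by construction.

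The difference between mutants turned sign for Camk2a with its second row (-0.057), and after centring for Camk2a (-0.11), Camk4 (-0.030) and Camk2b (-0.022); it ran from -0.060 to 0.24 for Camk2a without a library. Between WT ages Nrgn turned to 0.067 after centring and to 0.00054 with the 1st percentile subtracted, and ran from -0.18 to 0.13 without a library. Camk2d turned to 0.0057 after centring, and 1 member, Camk2g, then passed. None of these values passed the test except that of Camk2g, and the cause was not tested.

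Relative to the common shift 2 members passed at P40. The count was 0 by limma on log2(percent + 0.1), which called 0% of all genes (3465 at an unadjusted p under 0.05), and 0 on log2(percent + 0.5), which called 4.96%. It was 4 by limma on percent levels, all 4 below the shift. That fit called 57.1% of all genes, 32.9% below the shift and 24.2% above it. It was 1, Camk2d, with the 1st percentile subtracted (2.77% of all genes), only the groups compared (2.88%), no trend in the moderation (4.08%) or the second row (4.396%), and 1 or 2 without a library. At 4 months it was 0, and 4 by limma on percent levels, which called 48.7%. In percentage points Camk2d lay above the common shift, by 0.28 at P40 and 0.57 at 4 months, while Camk2a, Camk2b, Camk2g and Nrgn were below it at P40. At 4 months Nrgn had 0.10 with the 1st percentile subtracted and from -0.27 to 0.21 without a library, and Camk2g from -0.27 to 0.057.

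The gap between the forebrain-enriched and the broadly expressed genes stayed negative. With pooled calls it was -1.37 in the miR29 KO, -1.09 in WT of P40, -1.77 in Dnmt3a mi5 and -1.11 in WT of 4 months. With Camk2b added it was -1.22 in the miR29 KO and -0.928 in WT of 4 months, and with the second rows -0.892 in WT of 4 months. Without a library it ran from -1.10 to -1.05 in the miR29 KO, from -0.839 to -0.757 in WT of P40, from -1.57 to -1.28 in mi5 and from -0.859 to -0.826 in WT of 4 months.

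It is not known whether replicate numbers pair the libraries. Deviations of same-numbered P40 libraries, after each library's median was removed, correlated from -0.05 to 0.11, against -0.14 to 0.21 for those of different number. At 4 months the 2 deviations of a group mirror each other, so the value of -0.09 there cannot show pairing or its absence. With the replicate block, Camk2g between WT ages relative to the common shift did not pass (adjusted p = 0.084); 4 members passed at P40 and 3 at 4 months, with 15253 and 12340 of all genes, and 2 and 0 relative to the common shift. The alternatives not named here kept these counts within 1.5 times. Depth limits Nrgn most, with 24 to 69 methylated calls per library.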
